A study of Mus musculus with 4 samples.

Results

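Loops over 1 Mb were the longest chromatin loops called in granulosa cells, the somatic cells that line the ovarian follicle, before an ovulatory stimulus and 6 h after it. They were chosen by span alone: a loop belonged to them if the midpoints of its anchors, the 2 bins it joins, lay more than 1000 kb apart. This held for 957 of the 30437 loop calls in the 4 deposited lists. Calls of different libraries were taken as 1 distinct loop where both anchor midpoints lay within 20 kb, which gave 476 distinct long loops among 12920 distinct loops. Since span chose the members, spans are given as a description and were not tested.

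The libraries were made by Micro-C, which reads pairs of DNA segments that lie close together in the nucleus after digestion of chromatin with micrococcal nuclease. All mice were 21 days old and had been given 5 IU of eCG (also called PMSG), a gonadotropin that drives follicle growth. The PMSG group was collected at 0 h, with no hCG, and the hCG group at 6 h after a further injection, 5 IU of hCG, a hormone that acts on the receptor of luteinizing hormone and triggers ovulation. The time under eCG is 46 h in 1 label and 44 h in another. Cells came from punctured ovaries, which can release other cell types too, and 2 to 3 technical replicates were made for each sample. Each group had 2 libraries. The labels do not tie these to different animals, so p-values measure only the spread between samples, which may be technical. Strain and number of mice are not given in the labels. Loop lists hold no marker levels, so the labelled cell type could not be checked against them.

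A loop call is a pixel of the contact map with more contacts than its surroundings. Most loops of mammalian cells form where cohesin, a ring complex that extrudes DNA, is halted by the DNA-binding protein CTCF. A smaller class joins sites held by Polycomb complexes, which keep developmental genes silent, or joins gene clusters that gather in the same nuclear body, as replication-dependent histone genes do. The ratio used throughout is the observed contact count of the pixel over the count expected from the donut of pixels around it.

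The promoters of 6 genes lying inside anchors of long loops are shown for the 4 loci that recur in the results. Each is the stretch of 250 bases before the annotated start, 5′ to 3′ on the gene's strand, from RefSeq on GRCm38.p6, the assembly of mm10. Mptx2 and Mptx1, which encode mucosal pentraxins, lie at the opposite anchors of 1 loop, and the capitals mark the longest run of letters that both share, of 21 bases. H2bc12 and H2bc8, which encode histone H2B, lie at the opposite anchors of a loop seen in both hCG lists only. The capitals mark the octamer ATTTGCAT and TATAAA, the sequence of the TATA box, on either strand. Matches anywhere in the 250 bases were taken, so a match to TATAAA need not be a TATA box. In H2bc12 it is on the opposite strand and far from the gene start. In Crbn, which encodes the substrate receptor of a ubiquitin ligase, the capitals mark a match to CNAGGNGGC, a core of the CTCF motif, on either strand. In Adamts1, which encodes a matrix protease of ovulation, they mark TATAAA.
Mptx2, chr1:173277757-173278006, minus strand: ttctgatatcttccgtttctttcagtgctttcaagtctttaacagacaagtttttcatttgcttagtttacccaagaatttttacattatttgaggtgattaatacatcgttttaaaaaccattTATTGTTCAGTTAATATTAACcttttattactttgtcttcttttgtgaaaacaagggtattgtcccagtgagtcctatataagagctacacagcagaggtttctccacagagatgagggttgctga
Mptx1, chr1:174330268-174330517, plus strand: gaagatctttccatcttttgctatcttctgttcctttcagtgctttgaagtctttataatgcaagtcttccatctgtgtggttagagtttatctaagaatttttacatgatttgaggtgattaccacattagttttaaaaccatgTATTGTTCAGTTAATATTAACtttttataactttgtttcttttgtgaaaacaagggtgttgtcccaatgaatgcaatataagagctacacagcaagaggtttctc
H2bc12, chr13:22035571-22035820, plus strand: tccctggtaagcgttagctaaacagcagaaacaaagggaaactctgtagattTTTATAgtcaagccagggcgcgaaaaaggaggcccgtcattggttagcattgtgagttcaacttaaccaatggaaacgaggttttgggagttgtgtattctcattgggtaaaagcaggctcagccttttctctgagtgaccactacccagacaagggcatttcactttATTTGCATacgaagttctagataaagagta
H2bc8, chr13:23571150-23571399, plus strand: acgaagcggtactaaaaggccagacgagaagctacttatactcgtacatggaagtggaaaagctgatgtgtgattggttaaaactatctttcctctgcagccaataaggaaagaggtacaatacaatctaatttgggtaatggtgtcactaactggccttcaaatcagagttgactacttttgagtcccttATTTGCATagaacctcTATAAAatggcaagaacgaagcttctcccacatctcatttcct
Crbn, chr6:106800088-106800337, minus strand: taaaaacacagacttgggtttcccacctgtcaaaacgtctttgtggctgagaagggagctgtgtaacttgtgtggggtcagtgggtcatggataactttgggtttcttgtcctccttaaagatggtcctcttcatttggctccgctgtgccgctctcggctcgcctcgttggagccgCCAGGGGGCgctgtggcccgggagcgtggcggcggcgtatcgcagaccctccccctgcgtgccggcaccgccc
Adamts1, chr16:85803114-85803363, minus strand: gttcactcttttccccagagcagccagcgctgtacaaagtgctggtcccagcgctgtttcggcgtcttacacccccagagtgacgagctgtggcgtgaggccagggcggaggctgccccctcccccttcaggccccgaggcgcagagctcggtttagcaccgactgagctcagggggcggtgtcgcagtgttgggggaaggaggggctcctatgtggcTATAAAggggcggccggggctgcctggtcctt
The Mptx2 and Mptx1 promoters were identical at 86.4% of 228 aligned bases, against 67.8% of 208 for H2bc12 and H2bc8. Inside anchors of long loops seen in at least 2 libraries lay 103 promoters of 93 genes. The CTCF core was in 6 of these (5.83%), and in 7.06% of all 32851 promoters of the table. TATAAA was in 27 of them (26.2%; 12.4% of all promoters) and ATTTGCAT in 7 (6.80%; 1.60% of all). Of the 103, 20 were histone promoters, which held TATAAA in 9 and ATTTGCAT in 6. These windows end at the gene start, so they say nothing of CTCF sites elsewhere in an anchor.

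The PMSG lists held more long loops than the hCG lists. PMSG replicate 1 had 287 and PMSG replicate 2 had 254, while hCG replicate 1 had 195 and hCG replicate 2 had 221. The groups did not overlap, with 270.5 ± 23.3 long loops (SD, n = 2) before hCG and 208 ± 18.4 after it, a difference of -62.5. As a share of each list, long loops made up 3.46% (Wilson 95% interval 3.08 to 3.87) of 8305 loops and 3.89% (3.45 to 4.38) of 6533 loops before hCG. After hCG the shares were 2.54% (2.21 to 2.92) of 7664 loops and 2.79% (2.45 to 3.17) of 7935 loops. The share differed by -1.01 percentage points between groups. The exact permutation test over libraries gave a two-sided p = 0.333 for the number and for the share, which is the smallest that 2 against 2 libraries can give. The PMSG library with the shortest list had the highest share. With every list cut to its 6533 best-supported loops, the shares were 3.55% and 3.89% before hCG and 2.60% and 3.05% after it. The lower share was not particular to loops over 1 Mb. Loops of 500 kb to 1 Mb made up 10.3% and 10.7% of the lists before hCG and 8.66% and 8.95% after it.

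**Figure D1:**
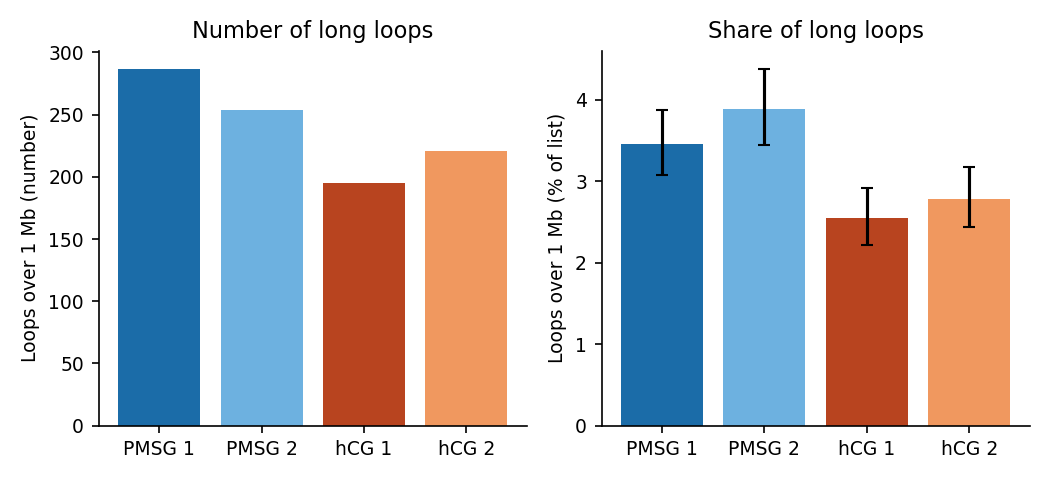
Number of loops over 1 Mb in each library (left) and their share of the library's loop list in percent (right), with Wilson 95% intervals that cover counting error only. Both PMSG libraries (287 and 254 long loops) sit above both hCG libraries (195 and 221), in number and in share.

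The depth of these calls was low. A long loop rested on a median of 31 and 29 observed contacts in the PMSG libraries and of 30 in each hCG library, and none had fewer than 12. All long pixels of a library together held 9945 and 7943 contacts before hCG and 6210 and 7353 after it. Contacts can include PCR copies, so counting error is a lower limit of the error. Most long loops lay near the threshold: the median span was 1350 and 1320 kb before hCG and 1250 and 1260 kb after it. Spans over 2 Mb were found in 71 distinct loops. Within 25 kb above the threshold lay 21 to 25 calls per library, the nearest at 1010 kb, with median ratios of 3.81 to 4.69. Within 25 kb below it lay 9 to 16 calls, of which 4 to 10 had a span of exactly 1000 kb, with median ratios of 4.21 to 5.50.

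In each library a larger share of long loops than of shorter loops was called in wide bins. Bins of 25 kb made up 57.1% of the long loops in both PMSG libraries, with 61.5% and 57.5% after hCG, where shorter loops had 24% and 34% before hCG and 28.8% and 27% after it. Loops of 500 kb to 1 Mb had 48.4%, 51.2%, 48.0% and 50.4%. Because the width of a bin sets how many contacts it collects, ratios were compared within 1 bin size.

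At equal bin size, the median long loop stood out more from its surroundings than the median shorter loop in each library. In 10 kb bins the median ratio of long loops was 6.91 and 7.59 before hCG, with 7.52 and 7.18 after it. Loops up to 1 Mb had 3.39 and 4.27 before hCG and 3.86 and 3.64 after it. The mean difference of the log2 medians was 0.95 ± 0.085 (SD over n = 4 libraries), with the long loops higher in 4 of 4 libraries, and the exact sign-flip permutation test gave a two-sided p = 0.13, the smallest that 4 libraries allow. The observed counts behind these ratios were lower for long loops, with medians of 19 and 20 contacts before hCG and 19 and 20 after it, against 40, 30, 31 and 35 for shorter loops. The expected counts were lower still, at 3.05 and 2.58 before hCG and 2.54 and 3.02 after it, against 11.7, 7.07, 8.30 and 9.75. A pixel with a low expectation must reach a higher ratio to be called at like counts, and the part of this in the difference was not tested. Against loops of 500 kb to 1 Mb alone, a comparison set chosen after seeing the data, the difference was 0.33 on the log2 scale.

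**Figure D2:**
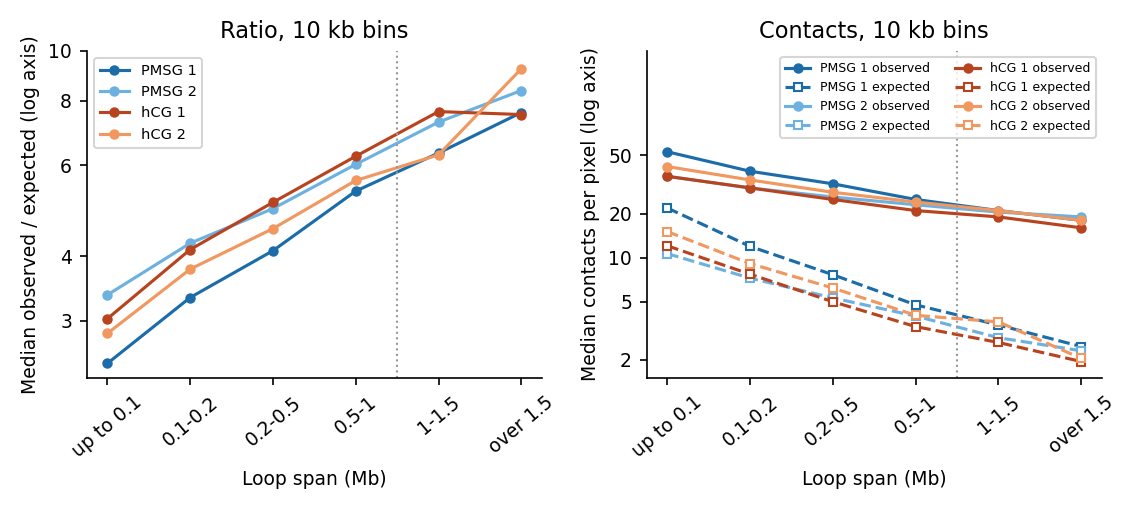
Median observed over donut-expected ratio (left) and the median observed and expected contacts behind it (right) by loop span in Mb, for loops called in 10 kb bins, 1 line per library, on log axes. The dotted line marks 1 Mb; loops up to 0.1 Mb had a median ratio of 2.48 to 3.37 and loops of 1 to 1.5 Mb of 6.29 to 7.62, while the widest class holds 15 to 34 loops per library.

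A few long loops had ratios far outside the rest. A ratio of 20 or more was reached by 5 and 6 long loops before hCG (1.74% and 2.36% of the long loops) and by 6 and 7 after it (3.08% and 3.17%), against 0.0125% to 0.0937% of shorter loops. These calls came from 11 distinct loops, of which 7 spanned over 2.5 Mb. The extreme case joined chr17:36230001-36235000, at the pseudogene Gm18604, to chr17:39845001-39850000, at Rn18s-rs5, a copy of the 18S ribosomal RNA gene, across 3615 kb. Its pixel held 159 and 224 contacts before hCG and 213 and 319 after it, where 0.14, 0.07, 0.05 and 0.10 were expected, giving ratios of 1156, 3265, 4048 and 3312. A loop of 3320 kb on chromosome 12, with no protein-coding gene end at either anchor, had ratios of 37.4, 23.2, 95.6 and 32.5. The loop with the Mptx2 and Mptx1 promoters printed above, between chr1:173270001-173280000 and chr1:174330001-174340000, held 18 and 37 contacts before hCG and 48 in each hCG library. Its ratios were 20.7 and 26.4 before and 42.3 and 34.3 after hCG. A loop of 7910 kb on chromosome 5, called in 3 lists with 13, 14 and 16 contacts and ratios of 71.3, 58.0 and 48.5, had the vomeronasal receptor pseudogene Vmn2r-ps24 at 1 anchor. Ribosomal RNA genes and pseudogenes have related copies elsewhere in the genome. The Mptx2 and Mptx1 promoters, at opposite anchors of their loop, were identical at 86.4% of 228 aligned bases. The sources used here do not say how reads matching several places were handled. The loops at such copies and at the Mptx genes are therefore uncertain, and the part of read placement in them was not tested.

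In each library a smaller share of long loops than of shorter loops had a gene at an anchor. A protein-coding gene end was within 2.5 kb of an anchor in 43.9% (126 of 287) and 37% (94 of 254) of the PMSG libraries' long loops, and in 42.1% (82 of 195) and 41.2% (91 of 221) of those after hCG. For loops up to 1 Mb the shares were 57.7%, 56.0%, 59.6% and 58.4%. The difference was -16.9 ± 2.21 percentage points (SD, n = 4), in the same direction in 4 of 4 libraries, with p = 0.13 by the exact sign-flip permutation test, the smallest possible. Loops of 500 kb to 1 Mb had 45.1% and 43.2% before hCG and 47.1% and 46.6% after it, from which the long loops differed by -4.48 points. The median long loop enclosed 1.14 and 0.98 genes per Mb before hCG and 1.18 and 1.34 after it, against 6.90 to 7.69 for all shorter loops and 1.98 to 2.35 for those of 500 kb to 1 Mb. The nearest gene end was a median of 34.6, 45.2, 36.4 and 34.9 kb from an anchor, against 13.3 to 16.1 kb for all shorter loops and 28.8 to 40.3 kb for those of 500 kb to 1 Mb. Of the 476 distinct long loops, 224 had a gene end at an anchor and 45 at both, and in 171 neither anchor overlapped a gene body.

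Named genes were placed at a loop where 1 library's call had a gene end at its anchor. Libraries often called the same distinct loop in different bins, and a 25 kb pixel collects more contacts at a lower ratio than a 10 kb or 5 kb pixel, so the values of 1 loop are comparable between libraries only where the bin size is the same.

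Among the genes of the follicle, 2 of 21 had an end at a long loop of at least 2 libraries, against 159 of 21631 protein-coding genes (0.735%). Both loops were common to the 4 libraries. Inhba, which encodes the subunit shared by activin A and inhibin A, was joined across 1430 kb to a site on chromosome 13 with no gene end. Its pixel held 66, 43 and 56 contacts in 25 kb bins in PMSG replicates 1 and 2 and hCG replicate 1, with ratios of 3.2, 2.53 and 3.83, and 18 contacts in a 10 kb bin in hCG replicate 2, with a ratio of 4.94. Gja1, which encodes connexin 43, the main gap junction protein of granulosa cells, was joined across 1080 kb to a site without a gene end, with 27 and 25 contacts in 10 kb bins in PMSG replicate 1 and hCG replicate 2. In the other libraries it had 74 and 54 contacts in 25 kb bins. The 4 ratios lay between 2.94 and 4.57.

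Of 30 ovulatory response genes, 1 was at a long loop of at least 2 libraries, Adamts1 (3.33%, beside 0.735% of all genes). Vcan, the versican gene, was at 1 of a single library. Adamts1 encodes the protease that cleaves versican around the time of ovulation, and its anchor carried 3 long loops. The loop of 1075 kb held 25 and 15 contacts in 5 kb bins before hCG, with ratios of 16.2 and 14.5, and 25 and 27 contacts in 10 kb bins after it, with ratios of 5.35 and 5.30. The loop of 1440 kb, called in bins of 5 or 10 kb, had ratios of 7.41 and 6.55 before hCG and 5.90 and 7.02 after it. The loop of 1575 kb, whose far anchor lay at Ltn1, a ubiquitin ligase gene of ribosome quality control, was in 3 lists, with ratios of 2.52 before and 3.11 and 2.85 after hCG. Each of the 3 loops was in at least 1 list of either group.

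Of 24 transcription factors of granulosa cells, 1 was at a long loop of at least 2 libraries, Klf4 (4.17%, beside 0.735% of all genes). Foxo1 and Gata4 were at loops of a single library. The Klf4 loop spanned 1175 kb and was called in 25 kb bins in every library. It held 68 and 45 contacts before hCG and 38 and 52 after it, with ratios of 3.26 and 3.74 before and 2.82 and 3.22 after hCG. The ratios of both hCG libraries were below those of both PMSG libraries, a log2 difference of -0.18 ± 0.20 (SE, edgeR) that did not pass the test.

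Developmental transcription factors were the list with the most genes at long loops in number, though not with the highest share. The share was higher for the genes of the follicle (9.52%, 2 of 21) and for theca and stroma genes (9.09%, 1 of 11). Of 293 such genes, 18 had an end at a long loop of at least 2 libraries (6.14%; 0.735% of all genes), and 14 of the 18 were at a loop common to the 4 libraries. Among genes with any loop in at least 2 libraries the shares were 13.5% of 133 and 2.33% of 6829. The 18 do not stand for 18 loops, since 7 were HoxA genes at the anchor of a single loop. That loop of 1050 kb held 111, 42 and 89 contacts in 25 kb bins, with ratios of 4.44 and 4.38 before hCG and 6.33 in hCG replicate 1, and 30 contacts in a 10 kb bin in hCG replicate 2, with a ratio of 7.34.

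The loops of Bhlhe22, Tfap2a, Tfap2b and Sox9 had 1 end at the gene and the other at a site without a gene end. Bhlhe22, a factor of neuronal development, had a loop of 1010 kb with ratios of 10.3, 13.7 and 17.7 in 5 kb bins and 9.26 in a 10 kb bin. Tfap2a and Tfap2b, factors of the neural crest and kidney, had common loops of 1560 and 1310 kb. Sox9, the testis-determining factor downstream of Sry, had a loop of 1250 kb in 3 lists, with 39 contacts in PMSG replicate 2 and 35 and 42 after hCG. Gata3 and Osr1 were at loops of the hCG lists only. Other list classes had fewer genes in number. They were 4 of the neural receptors and channels (1.61%), 4 of 164 adhesion and synapse genes (2.44%) and 3 of 71 guidance genes (4.23%). Of 1477 olfactory and vomeronasal receptors there were 2 (0.135%), beside 0.735% of all genes.

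Markers of other cell types of the ovary gave small counts, beside 0.735% of all genes. None of 13 endothelial, 8 immune, 10 oocyte and 10 housekeeping genes had an end at a long loop of any library. The body of the endothelial gene Emcn did overlap an anchor of a loop of both hCG lists, without an end there. Of 11 theca and stroma genes, 1 (9.09%) was at a long loop of at least 2 libraries: Pdgfra, a growth factor receptor of stromal cells, was at a loop of the PMSG lists only, and Nr2f2 at 1 of a single library. In bulk libraries a loop of fewer cells and a weaker loop in all cells cannot be told apart.

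The largest group of connected long loops lay across the histone gene cluster of chromosome 13. It held 13 loops within 2.62 Mb, from chr13:21150001 to chr13:23775000, of which 7 were in at least 2 libraries and none in all 4. Of the 51 histone genes in that stretch, 41 had an end at an anchor, and 8 of the 13 loops had histone genes at both anchors. One anchor, chr13:22020001-22075000, with H2ac11, H2ac12, H2bc11, H2bc12, H4c9 and the protease gene Prss16, took part in 6 of the loops. Genes of this cluster encode the core and linker histones made while DNA is replicated.

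Of the loops of 1 group alone in this cluster, 1 lost and 1 gained loop ended in neighbouring bins. From the shared anchor, both PMSG libraries had a loop of 1500 kb to the bin with H2bc9 and H4c8, with 77 and 43 contacts and ratios of 4.82 and 4.95. Both hCG libraries had instead a loop of 1525 kb to the next 25 kb bin, with H2bc7 and H2bc8, holding 66 and 62 contacts at ratios of 4.86 and 4.88. Their second anchors touch, so the match distance of 20 kb counts the first as lost and the second as gained, and with 50 kb neither remained in its class. A second gained loop, of 1800 kb, joined H2bc14, H4c11 and H4c12 to the bin with H2bc9 and H4c8, with 41 and 49 contacts at ratios of 2.87 and 3.36, and its nearest PMSG call was 50 kb away. Another loop from the shared anchor, of 1700 kb, to H1f2, H2bc3 and H3c3, had ratios of 9.14 and 12.4 before hCG and 9.11 in hCG replicate 2.

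**Figure D3:**
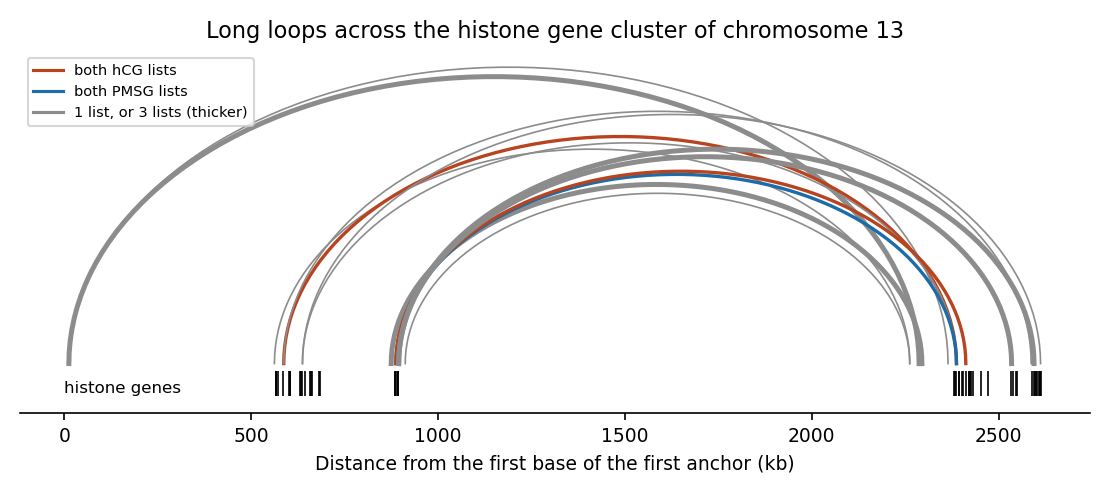
The 13 long loops across the histone gene cluster of chromosome 13, drawn as arcs against the distance in kb from the first base of the first anchor, with histone genes as ticks below. Line width grows with the number of libraries; the arc of both PMSG lists (1500 kb) and an arc of both hCG lists (1525 kb) start at the same anchor and end in neighbouring bins.

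Long loops of a single library and long loops of several were about equal in number. Of the 476 distinct long loops, 244 (51.3%) were in a single list, where 40% of all distinct loops were, and 100 (21.0%) were common to the 4 lists, where 29.9% of all were. For loops of 500 kb to 1 Mb the corresponding shares were 41.4% and 28.8%, and for the 71 loops over 2 Mb they were 71.8% and 8.45%. Calls of 25 kb bins that lie 1 bin apart cannot match within 20 kb, and long loops were called in such bins more than all shorter loops were. With a match distance of 50 kb, chosen after seeing the data, 40.5% of the long loops and 29.9% of all were in a single list, and 25.3% and 38.9% were in all 4. Of the long loops of PMSG replicate 1, 57% were shared with PMSG replicate 2, against 62.4% of all its loops. Of those of hCG replicate 1, 68.9% were shared with hCG replicate 2, against 71.9% of all. Between groups, the share of PMSG loops found again in an hCG list ran from 44.7% to 52.4% for long loops and from 64.1% to 71.9% for all. The share of hCG loops found again in a PMSG list, where the long-loop lists are longer, ran from 61.0% to 66.3% for long loops and from 59.6% to 69.7% for all. No test was made of these counts, since the calls of 1 library are not replicates.

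**Figure D4:**
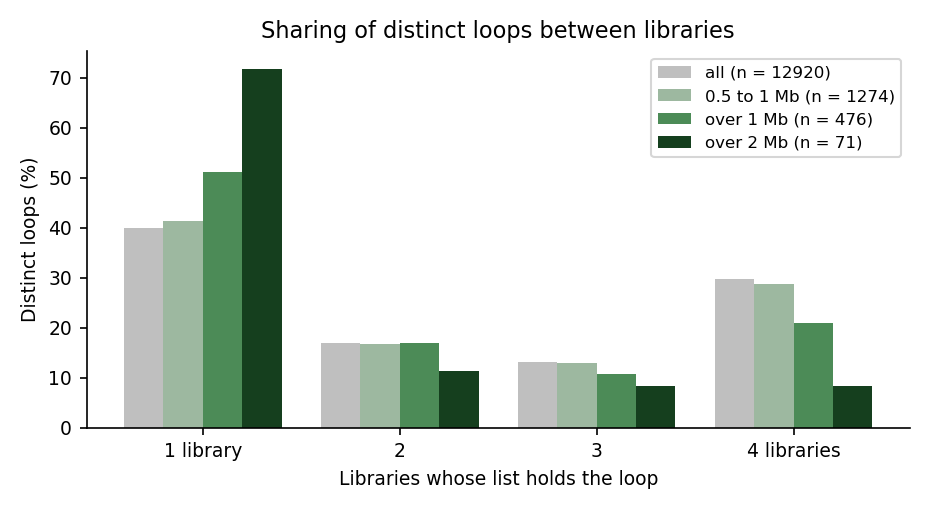
Share of distinct loops in percent by the number of libraries whose list holds them, for all distinct loops, those of 0.5 to 1 Mb, those over 1 Mb and those over 2 Mb. Loops in a single library make up 40% of all, 51.3% of those over 1 Mb and 71.8% of those over 2 Mb.

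Of the 12 common long loops with the highest ratios, 3 with ratios above 20 and that of Bhlhe22 were described above. Of the others, all but 3 had a gene end at 1 anchor. Bcl6, which encodes a transcriptional repressor, was joined across 1080 kb to a site without a gene end, with 28, 14 and 18 contacts in 5 kb bins at ratios of 9.78, 14.6 and 11.8, and 39 contacts in a 10 kb bin in hCG replicate 1 at a ratio of 9.54. The Bcl6 anchor carried 2 further long loops, of 1280 and 1360 kb, the first in both hCG lists only and the second in 1 list of each group. Steap1, which shared its anchor with Gm46900, had a loop of 2240 kb in 10 kb bins with 32 and 25 contacts before hCG and 15 and 19 after it. Its ratios were 10.5 and 9.0 before and 8.35 and 8.34 after hCG, without overlap between groups, but the log2 difference of -0.23 ± 0.28 (SE, edgeR) did not pass the test. Chd2, a chromatin remodeler gene, and its neighbour Rgma shared an anchor 1020 kb from a site without genes, and Sec23a, a gene of the COPII coat, had a loop of 1115 kb. A loop of 1960 kb on chromosome 4 had the zinc finger gene Zfp982 and the vomeronasal receptor pseudogene Vmn2r-ps20 at 1 anchor. Its ratios were 21.9 and 8.97 before hCG and 16.3 and 16.5 after it, all in 5 kb bins. The part of read placement in this loop was not tested. The other 3 of the 12, of 1180, 1365 and 1630 kb, had no gene end at either anchor.

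Of the 6 loops over 2 Mb common to the 4 libraries, 4 had a gene end at an anchor: Steap1, Gm42346, Hapln1 and Slitrk3. Hapln1, which encodes a link protein that ties hyaluronan to proteoglycans, was joined across 3900 kb to chr13:85625001-85650000, where no gene end lay. It was called in bins of 25 kb in every library, with 33 and 36 contacts before hCG and 39 and 42 after it, where 9.06, 11.2, 8.76 and 8.96 were expected. The ratios of 3.64 and 3.21 before hCG lay below the 4.45 and 4.69 after it, and the log2 difference of 0.42 ± 0.22 (SE) had an adjusted p of 0.755 in edgeR. Slitrk3, a synaptic adhesion gene, was joined across 2940 kb, with 19 contacts in each PMSG library and 16 and 27 after hCG. The Crbn promoter printed above lay at a common loop of 1250 kb to Setmar, a gene for a histone methyltransferase, with ratios of 8.86, 8.96 and 12.1 in 10 kb bins and 5.05 in a 25 kb bin in hCG replicate 1. In that pixel alone, the wider of both sizes, the Setmar end fell within the anchor. Other loops with genes at both ends joined Ndst3, a heparan sulfate enzyme gene, and Prss12, a protease gene, to 1700003H04Rik, in all 4 lists, and Chrm3, a muscarinic receptor gene, to Ryr2, a calcium release channel gene, in PMSG replicate 1 and hCG replicate 1.

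Few loops were called in both libraries of 1 group and in none of the other. Gained loops, those that both hCG lists held and no PMSG list did, numbered 21 of the 476 (4.41%; 5.05% of all distinct loops), and lost loops, the reverse, 29 (6.09%; 3.8% of all). A further 31 loops were in 1 list of each group, and 168 were in a single PMSG list and 76 in a single hCG list. Among the distinct loops of 500 kb to 1 Mb, 2.75% were gained and 5.10% lost, so more lost than gained loops were not particular to long loops. Of the gained long loops, 7 had a call of a PMSG list with both midpoints within 50 kb (33.3%; 29.3% of all gained loops), and of the lost ones 4 had such a call of an hCG list (13.8%; 24.2% of all lost loops). By the larger offset of the 2 midpoints, the nearest call of the other group was a median of 102.5 kb away for gained and 275 kb away for lost long loops. A loop missing from a list is one that did not pass the caller, and the lists give no contact counts for it.

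Among lost loops with a gene end, that with the highest ratio in its weaker library was at Htr1a, a serotonin receptor gene, across 1470 kb. It held 20 and 16 contacts in 10 kb bins, at ratios of 7.93 and 8.81, and no hCG call had both midpoints closer than 1540 kb to its own. Igfbp3, which encodes a carrier of insulin-like growth factors, lost a loop of 1030 kb that held 26 and 20 contacts at ratios of 6.10 and 6.56. A second loop from its neighbourhood, of 1200 kb and at Igfbp1 as well, was common to the 4 libraries, with 27 and 22 contacts before hCG and 21 and 23 after it. Other lost loops lay at Epha4, an ephrin receptor gene, with ratios of 11.7 and 6.66, at Pdlim1, a cytoskeletal adaptor gene, with 12.9 and 6.45, and at Nxph1, a neurexophilin gene, across 2350 kb with 14.5 and 4.77, in each case with the higher ratio in the smaller bin. Tyw5, Mmadhc, Nkain3 and Nkain2 completed the 10 highest, together with the histone loop above. The Nkain3 loop was not classed as lost with a match distance of 10 kb or all 4 FDR at or below 0.01. With lists of equal length, neither the Nkain3 loop nor the Pdlim1 loop was classed as lost.

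Among gained loops with a gene end, that with the highest ratio in its weaker library was at Bcl6, with 16 and 25 contacts in 10 kb bins and ratios of 5.61 and 6.71. It was no longer gained with all 4 FDR at or below 0.01 or with lists of equal length. Ephb1, an ephrin receptor gene, gained a loop of 1050 kb with 27 and 31 contacts, and Lats2, which encodes a kinase of the Hippo pathway, a loop of 1425 kb with 29 contacts in each hCG library. Abce1, a ribosome recycling gene, and Anapc10, a subunit gene of the anaphase-promoting complex, shared an anchor with a gained loop of 1300 kb to Usp38, a deubiquitinase gene. Their anchor also had a common loop of 1030 kb to Smarca5, which encodes a chromatin remodeling ATPase, with 75 and 60 contacts in 25 kb bins before hCG and 30 and 26 in 10 kb bins after it. Pcdh7, a protocadherin gene, had both a gained loop of 1125 kb and a common loop of 1020 kb, the latter with 18, 16, 16 and 20 contacts in 10 kb bins at ratios of 6.98, 6.78, 6.68 and 7.15. The histone loop above and loops at Olfr1243, an olfactory receptor gene, Slc39a8, a metal transporter gene, Fat4, an atypical cadherin gene, and the neighbours Gm11100 and Gm281 completed the 10 highest. The nearest PMSG call was 25 kb from the Olfr1243 loop and 25 kb from the Fat4 loop. Neither was classed as gained with a match distance of 50 kb. With all 4 FDR at or below 0.01, the Fat4 and Usp38 loops were not classed as gained. The loop at Gm11100 and Gm281 was not classed as gained with a match distance of 10 kb or with lists of equal length.

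Loop strength was tested where it could be, at distinct loops that every library called at 1 and the same bin size, with observed counts modelled against the donut expectation. This covered 27 of the 100 common long loops among 1366 loops. At an adjusted p of 0.05 in edgeR's quasi-likelihood test, 0 of the 1366 loops (0%) and 0 of the 27 long loops passed. At an unadjusted p of 0.05, 91 loops and 3 long ones passed in edgeR, and 5 and 0 in DESeq2. The log2 differences of the long loops ran from -0.42 to 0.81, with 16 higher and 11 lower after hCG and a median of 0.11, beside a median of 0.15 over all loops. With TMM library factors the median was 0.01 over all loops and -0.01 over the long ones, so the count of higher and lower loops depends on the scaling. On counts simulated at these 1366 loops, 65% of changes of 2-fold and 96% of changes of 3-fold were recovered by edgeR. The simulation changed 200 loops at once and gave every loop the same dispersion. Recovery was pooled over loops of all spans, so recovery at the 27 long loops is not known.

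The 3 long loops with an unadjusted p under 0.05 were all higher after hCG. The loop at the ribosomal RNA copy had a log2 difference of 0.81 ± 0.26 (SE) and an adjusted p of 0.553 in edgeR. The Mptx2 and Mptx1 loop had 0.65 ± 0.23 and an adjusted p of 0.582. Read placement was not tested for the ribosomal loop or the Mptx loop. A loop of 1080 kb on chromosome 14 without gene ends had ratios of 4.93 and 6.16 before and 8.08 and 9.53 after hCG, a log2 difference of 0.70 ± 0.28 with an adjusted p of 0.638. In 6 of the 27 loops both hCG ratios were above both PMSG ratios, and in 3 both were below. The same count was not made over all 1366 loops, whose median log2 difference was 0.15. With 2 libraries in each group such separation is common without any change, so the counts are a description only. The ribosomal loop passed the test when PMSG replicate 2, hCG replicate 1 or hCG replicate 2 was left out, with log2 differences of 1.63, 0.64 and 0.93, and did not pass when PMSG replicate 1 was left out; with 1 library in a group, that library is assumed to vary like the others.

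Anchors of long loops carried other loops about as often as anchors of shorter loops. In the same library's list, another loop of any span had an anchor within 20 kb at 55.1% and 52.0% of long-loop anchors before hCG and at 52.1% and 55.4% after it. Anchors of loops up to 1 Mb had 55.4% and 45.9% before and 50.8% and 53.1% after hCG. The difference of 2.30 ± 2.72 percentage points (SD, n = 4) was positive in 3 of 4 libraries and gave p = 0.25 by the exact sign-flip permutation test. It changed sign against loops of 500 kb to 1 Mb, whose anchors carried another loop in 58.3% to 63.6%, a difference of -7.47 points.

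Among the long loops alone, 293 of 476 (61.6%) shared an anchor with another long loop. The 476 loops used 765 anchors, of which 146 had at least 2 long loops and 30 at least 3. They fell into 295 connected groups, 183 of them single loops and 14 with 4 or more loops, and no 3 of them closed a triangle. The anchors with most long loops were that of the histone genes and that of Tfap2a, with 6 each, followed by a site on chromosome 2 without gene ends, with 5. Of the 6 Tfap2a loops, 4 were in a single list and 1 was common, with 19, 19 and 23 contacts in 10 kb bins and 36 in a 25 kb bin. Hdac2, which encodes a histone deacetylase, had 4, of which the common one of 1840 kb held 63 contacts in a 25 kb bin in PMSG replicate 1 and 21, 16 and 20 in 10 kb bins in the others.

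Myc, which encodes a transcription factor of cell growth, also had 4 long loops at its anchor. The common one joined it to chr15:63650001-63660000 across 1680 kb, with 28 and 21 contacts before hCG and 22 in hCG replicate 2, all in 10 kb bins, and 58 in a 25 kb bin in hCG replicate 1. Another, of 1625 kb, was in both PMSG lists only, with 60 and 47 contacts at ratios of 2.38 and 2.61, and an hCG call had both midpoints within 42.5 kb of its own. The other 2 were in PMSG replicate 1 alone.

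Chromosome 13 had the highest share of long loops in every library, with 81.5 and 71.8 per 1000 loops before hCG and 55.7 and 68.8 after it, and chromosome 12 the next highest, with 53.3, 60.9, 41.1 and 47.8. Over all chromosomes the shares were 34.6, 38.9, 25.4 and 27.9 per 1000. Without the histone cluster, chromosome 13 still had 61.3, 63.8, 43.6 and 52.5 per 1000, above every other chromosome in each library. Chromosomes 9 and X had the lowest shares over all lists, at 13.3 and 13.1 per 1000. No long loop of chromosome X was common to the 4 libraries, though it had only 9 distinct ones. The 12 common loops of chromosome 13 were matched only by the 12 of chromosome 1, which had 2267 loop calls against 1567.

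**Figure D5:**
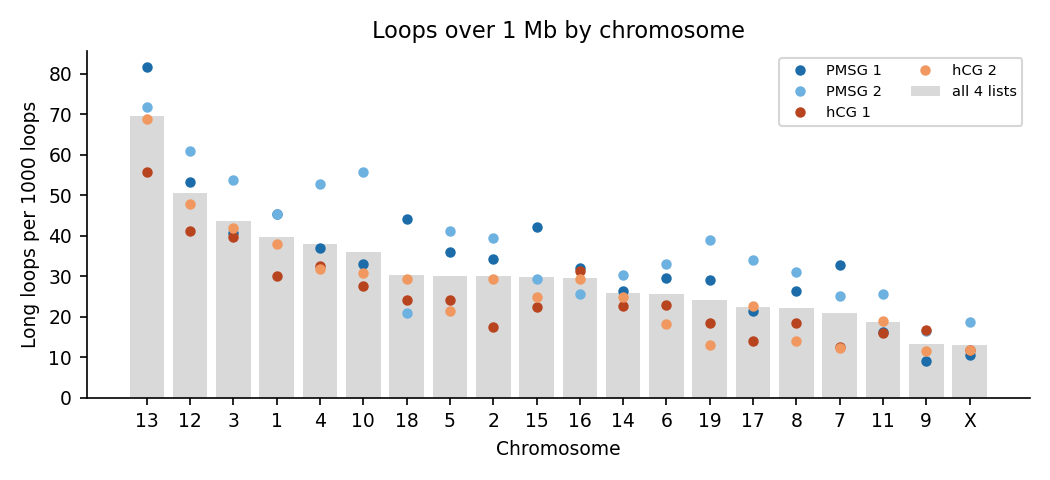
Loops over 1 Mb per 1000 called loops by chromosome, in order of the share over all 4 lists (bars), with a point for each library. Chromosome 13 is highest (55.7 to 81.5 per 1000) and chromosome 12 next in all 4 libraries, and chromosomes 9 and X are lowest over all lists.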

How the data were processed

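Granulosa cell Micro-C was analysed from 4 loop lists, 1 per library (PMSG and hCG, replicates 1 and 2 by title). The submitters' processing notes name BWA, Juicer and mm10, and per the file headers juicer_tools 1.22.01 wrote the lists. The sources used here give no caller settings or read filters. Per the file headers, each call has an observed count (raw contacts of its pixel), expected contact signals from 4 local neighbourhoods, of which the donut was used, and a q-value for each, all below 0.1. The deposited score numCollapsed (pixels merged into a call) entered no comparison. Bins were 5, 10 or 25 kb.

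Calls with both midpoints within 20 kb, directly or through other calls, formed 1 distinct loop, long if its median span exceeded 1 Mb. Positions are 1-based, from the smallest bin. Gene ends came from 21631 RefSeq protein-coding genes (GRCm38.p6), within 2.5 kb of an anchor, and the table gives no exons. Members, lists, tests and named genes were chosen with earlier results of these data known. Named genes were those at the 12 common loops with the highest smallest ratio, the 10 lost and 10 gained loops with a gene end and the highest smaller ratio, the 5 longest loops and the 10 highest with gene ends at both anchors (at least 2 libraries), the 5 anchors with most long loops, and list members at loops of at least 2 libraries. Those that no sentence names are in these groups' counts, and some are not reported here.

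Library values were compared by exact permutation tests. Strength was fitted with edgeR 4.0.16 in R 4.3.3, the log of the donut expectation as offset, without the replicate number as a block, Benjamini-Hochberg adjusted over all loops fitted; DESeq2 1.42.0 was an alternative. Matching and strength were tested on simulated data. Python 3.11.15, pandas 2.3.3 and Biopython 1.88 did the rest. Deviations of same-numbered libraries correlated at -0.008 over the loops fitted. With 2 pairs this cannot tell whether the replicate numbers pair the libraries.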

Additional observations from a re-analysis of the deposited data

How the results depend on the processing

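The lower number and share of long loops after hCG, the higher ratio and the lower share with gene ends kept their direction under every alternative tried for each. The number differed by -79 to -46 and the share by -1.22 to -0.79 points when 1 library was left out, the log2 ratio by 0.92 to 0.99 and the gene ends by -17.9 to -16.2 points. With genes of all kinds, chosen after seeing the data, the gene end difference was -7.63 points. Sharing of anchors reversed with 10 kb bins only (-0.565 points) and against loops of 500 kb to 1 Mb (-7.47 points), and ran from 1.06 to 3.2 when 1 library was left out.

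Counts of gained loops moved to 12 with all 4 FDR at or below 0.01. With thresholds of 1.5 and 2 Mb there were 5 and 1 gained, 10 and 3 lost, and 24 and 6 common loops, since fewer loops are that long. Leaving out 1 library leaves fewer lists in which a loop must be present or absent, and gave 26 to 67 gained, 41 to 128 lost and 103 to 125 common loops. Without the histone cluster, an alternative chosen after seeing the data, 19 gained, 28 lost and 100 common loops remained. Of the loops followed by name, 14 of 17 common, 7 of 10 lost and 4 of 10 gained kept their class at both match distances, the stricter FDR and equal list length.

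For loop strength, 0 long loops passed with the replicate block, DESeq2, identical pixels, any bin size, the largest of the 4 expectations, TMM factors or a filter on low counts, and 0 to 1 when 1 library was left out. With the replicate block 57 loops and 2 long ones had an unadjusted p under 0.05. DESeq2 recovered 12% of simulated 2-fold changes, against 65% for edgeR. Medians near 30 contacts limit single ratios, and 73 of the 100 common long loops lacked a common bin size and were tested only with any bin size.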
